A study of Mus musculus with 9 samples.

Results

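Vegfa, Bnip3, Egln3 and Adm are classic targets of the hypoxia-inducible transcription factors, and their transcripts were followed in bone marrow-derived macrophages under 3 stimulations. They were chosen by their 4 UniGene cluster numbers. The table analysed held a single probe set for each of 3 of these numbers, among 17810 clusters in all. They were 'Mm.282184' for Vegfa (NCBI Gene 22339), 'Mm.133037' for Egln3 (112407) and 'Mm.1408' for Adm (11535). No row carried the number of Bnip3, a mitochondrial protein of mitophagy and cell death, so Bnip3 was not analysed here. The pairing of number and gene was taken as given: the files name no cluster, and the gene table used here named 0 of the clusters.

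The cells came from the femurs and tibias of C57BL/6 mice and were cultured with macrophage colony-stimulating factor (M-CSF, 30 ng/ml) for 7 days in all. On day 4 the medium was exchanged, and stimulation lasted 3 days. The group called dexa+IL4 was given interleukin 4 (IL-4) at 10 ng/ml and the synthetic glucocorticoid dexamethasone at 5e-07 M. Another received medium conditioned by B16F1, a mouse melanoma line, and is called cmB16F1. The last received all of these (cmB16F1+dexa+IL4) and is called the combination. Each group had 3 one-colour Affymetrix arrays, 9 in all. Medium alone was not analysed here, so a difference between groups has no unstimulated reference. The labels give neither the oxygen level of the cultures nor the number of mice, and do not say whether replicates came from separate animals, so p-values measure only the spread between these samples. Macrophage markers could not be looked up, for want of gene names. In such bulk RNA, fewer cells of a type and less RNA per cell cannot be told apart.

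Hypoxia-inducible factors consist of an alpha subunit, which prolyl hydroxylases such as the Egln3 product mark for destruction while oxygen is plentiful, and a stable beta subunit. When oxygen falls, or when other signals stabilise the alpha subunit, the pair binds short sites in DNA and raises transcription of its targets. Egln3 is itself such a target, which makes it part of a feedback loop. Vegfa encodes the main angiogenic growth factor acting on endothelial cells, and Adm encodes adrenomedullin, a vasodilator peptide that also acts on vessels. Tumour macrophages are a known source of Vegfa.

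The promoters are shown because the 3 genes are grouped as targets of a common factor but did not share a pattern in the measured values. Adm, the gene that differed, lay near background. The sequences are the 250 bases before the gene start, from RefSeq on GRCm38.p6, read 5′ to 3′ on the strand of the gene. Capitals mark ACGTG or GCGTG, the core letters bound by hypoxia-inducible factors, searched on both strands, so that CACGT and CACGC are the same cores read from the other strand. The Vegfa window lies at chr17:46032378-46032627 (minus strand), the Egln3 window at chr12:54203875-54204124 (minus strand) and the Adm window at chr7:110627407-110627656 (plus strand).
Vegfa: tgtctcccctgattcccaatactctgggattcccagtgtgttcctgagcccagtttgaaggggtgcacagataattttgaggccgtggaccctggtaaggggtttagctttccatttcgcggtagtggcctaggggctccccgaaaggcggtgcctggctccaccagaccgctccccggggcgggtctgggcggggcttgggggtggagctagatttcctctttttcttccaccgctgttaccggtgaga
Egln3: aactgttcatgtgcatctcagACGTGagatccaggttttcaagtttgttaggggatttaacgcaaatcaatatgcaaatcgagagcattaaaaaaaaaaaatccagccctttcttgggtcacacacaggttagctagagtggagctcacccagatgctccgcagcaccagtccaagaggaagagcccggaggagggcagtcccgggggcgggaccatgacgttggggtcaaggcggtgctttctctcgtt
Adm: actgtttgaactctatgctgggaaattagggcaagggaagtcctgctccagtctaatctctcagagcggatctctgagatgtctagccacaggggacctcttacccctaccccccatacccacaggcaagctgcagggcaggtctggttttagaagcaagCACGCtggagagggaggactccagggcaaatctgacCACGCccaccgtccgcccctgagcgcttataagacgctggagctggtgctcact
The Egln3 window held 1 match, ACGTG on the strand of the gene, 229 to 225 bases before the start. The Adm window held 2 matches, both GCGTG on the opposite strand, 90 to 86 and 54 to 50 bases before the start. The Vegfa window held 0. The table gives Vegfa another start, inside the gene, and the 250 bases before it (chr17:46025164-46025413) held 2 matches, GCGTG on the strand of the gene at 218 to 214 bases and ACGTG on the opposite strand at 211 to 207 bases before that start. That window lies wholly within the Vegfa gene (46016993 to 46032377) and can hold transcribed or coding sequence, so its matches are not taken as promoter sites. Which start the array's probes follow is not given. Of 32851 promoter windows of this length, 38.6% held at least 1 match and 16.7% held 2 or more. These matches describe letters in a short window, and a window without one says nothing about sites elsewhere.

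Vegfa was highest in cmB16F1, far lower in the combination and lowest in dexa+IL4. On the log2 scale, the cmB16F1 arrays gave Vegfa 8.76, 8.85 and 8.85 for replicates 1 to 3. The combination arrays gave 7.29, 7.42 and 7.47, and the dexa+IL4 arrays 7.02, 7.07 and 6.98. No array of one group overlapped with any array of another. The means were 8.82 ± 0.05 (SD, n = 3) in cmB16F1, 7.39 ± 0.09 in the combination and 7.02 ± 0.04 for dexa+IL4.

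Egln3 was also highest in cmB16F1, while its values in the other groups lay close together. The cmB16F1 arrays gave Egln3 7.09, 7.48 and 7.56 on the log2 scale. The combination arrays gave 6.64, 6.85 and 6.77, and the dexa+IL4 arrays 6.58, 6.70 and 6.62. All 3 cmB16F1 arrays lay above the other 6, whereas the combination and dexa+IL4 overlapped. The means were 7.38 ± 0.25 (SD, n = 3) in cmB16F1, 6.75 ± 0.11 in the combination and 6.64 ± 0.06 in dexa+IL4. Replicate 1 was the lowest Egln3 array in each of the 3 groups, and by the widest margin in cmB16F1.

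Adm showed another order, with its lowest values in cmB16F1. The cmB16F1 arrays gave Adm 6.73, 6.74 and 6.66 on the log2 scale. The combination arrays gave 7.02, 7.06 and 6.98, and the dexa+IL4 arrays 6.97, 6.95 and 6.85. The groups did not overlap, though the lowest combination array, at 6.98, was barely above the highest dexa+IL4 array, at 6.97. The means were 6.71 ± 0.04 (SD, n = 3) in cmB16F1, 7.02 ± 0.04 in the combination and 6.93 ± 0.06 in dexa+IL4.

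**Figure D1:**
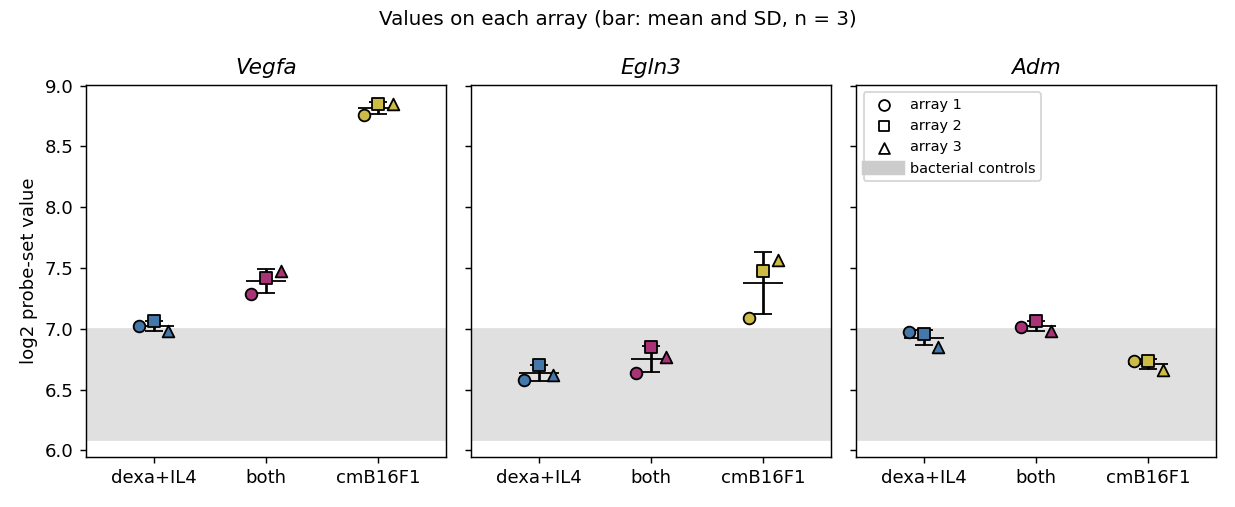
Log2 probe-set value of Vegfa, Egln3 and Adm (vertical axis) on each of the 9 arrays by stimulation, with "both" for the combination, symbols for the replicate number, bars for mean and SD (n = 3), and a grey band for the bacterial control sets over all arrays (6.09 to 7.00). Vegfa and Egln3 leave the band in cmB16F1, at 8.82 and 7.38 on average, while Adm stays in or next to it throughout.

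Much of this lay near the low end of the scale. Bacterial poly-A control sets, whose sequences mouse RNA should not contain, ranged from 6.09 to 7.00 and served as the measure of background. Vegfa exceeded the highest of these controls on the same array in 3 of 3 cmB16F1 and 3 of 3 combination arrays, and in 2 of 3 dexa+IL4 arrays. Egln3 did so in 3 of 3 cmB16F1 arrays and in 0 arrays of the other groups. Adm exceeded it in 3 of 3 combination arrays, by a narrow margin, in 1 of 3 dexa+IL4 arrays and in 0 cmB16F1 arrays. Where a gene exceeded the controls on no array of the dimmer group, a fold is given only as a lower bound, against the mean of the highest bacterial control on each of those arrays. Each bound is a lower bound as to background only. It is taken from group means and makes no allowance for the spread between arrays or for the scaling.

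The single stimulations were compared first, to ask how far melanoma medium and dexamethasone with IL-4 differ in these genes. Vegfa was 3.47-fold lower in dexa+IL4 than in cmB16F1, and since dexa+IL4 was barely above background the true ratio may be larger. Egln3 was at least 1.32-fold lower in dexa+IL4. Adm was higher in dexa+IL4 by 0.22 on the log2 scale, without a fold, since the dexa+IL4 mean did not exceed the bound for cmB16F1. In limma the Vegfa change was -1.79 (SE 0.05, 95% confidence interval -1.91 to -1.67, Benjamini-Hochberg adjusted p = 2.83e-08). The Egln3 change was -0.74 as measured (SE 0.11, interval -0.98 to -0.50, limma adjusted p = 7.01e-04), or at least 0.40 in size. For Adm the limma adjusted p was 0.00346, with an interval from 0.13 to 0.31.

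All 3 genes were thus called, 2 of them lower and 1 higher in dexa+IL4. Among all clusters 25% were called in this comparison, 12.2% lower and 12.8% higher, and 44.3% had no overlap between the groups' arrays. The median of the 3 changes was -0.74, that of Egln3 as measured, against 0.02 over all clusters. Counting Vegfa itself, 64 of 17810 clusters (0.36%) were lower in dexa+IL4 by as much as Vegfa or more. Egln3 and Adm are not ranked, since their dimmer group was not above background. Adm was no longer called once hybridization controls set the scale of each array (limma adjusted p = 0.192, the highest over 17 alternatives, from 0.00113 upward), although the change, 0.26, was no smaller.

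The next comparison asked how cells given dexamethasone and IL-4 together with melanoma medium differed from cells given melanoma medium alone. Vegfa was 2.69-fold lower in the combination than in cmB16F1, and Egln3 at least 1.36-fold lower. Adm was higher, by 0.31 as measured and by at least 1.05-fold against the bound for cmB16F1. The Vegfa change was -1.43 on the log2 scale (SE 0.05, 95% confidence interval -1.54 to -1.31, limma with Benjamini-Hochberg adjusted p = 1.61e-07). The Egln3 change was -0.63 as measured (SE 0.11, interval -0.87 to -0.38, limma adjusted p = 0.00323), or at least 0.44 in size. The Adm change had an interval from 0.22 to 0.40 (limma adjusted p = 6.23e-04).

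Arrays of equal replicate number deviated together in these groups, so differences by number were taken as well. Combination minus cmB16F1 was -1.47, -1.43 and -1.37 for Vegfa in replicates 1, 2 and 3. For Egln3 it was -0.45, -0.63 and -0.80, and for Adm 0.28, 0.33 and 0.32. Each gene kept a single sign over the 3 numbers, and Egln3 varied most. The comparison called 14.1% of all clusters, 7.57% lower and 6.56% higher, and 28.5% did not overlap. Higher clusters were 46.4% of those called, and 11.7% on the scale of the hybridization controls. The median of the 3 changes was -0.63, that of Egln3 as measured, against 0.01 over all clusters. Vegfa stood far out in the distribution: 49 of 17810 clusters (0.28%) fell as far or further, itself included. On the scale of the hybridization controls Adm was no longer called, with a change of 0.10 (limma adjusted p = 0.460, the highest over 17 alternatives, from 2.53e-04 upward).

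The last comparison asked what melanoma medium did to cells that received dexamethasone and IL-4. Vegfa was 1.29-fold higher in the combination than in dexa+IL4, and since dexa+IL4 was barely above background the true ratio may be larger. Egln3 was within the range of the bacterial controls in both groups, so no fold is given, and its measured change of 0.12 missed the threshold. Adm was 0.09 higher as measured and missed it too. On the scale of the hybridization controls these changes turned to -0.14 for Egln3 and -0.16 for Adm, neither of them past the threshold. The Vegfa change was 0.37 on the log2 scale (SE 0.05, 95% confidence interval 0.25 to 0.49, limma with Benjamini-Hochberg adjusted p = 0.00124). The interval for Egln3 ran from -0.12 to 0.36 (limma adjusted p = 0.530) and that for Adm from 0.002 to 0.19 (limma adjusted p = 0.153).

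Of all clusters, 17.9% were called in this comparison, 8.88% higher and 9% lower, and 36.1% did not overlap. Higher clusters made up 49.7% of those called, against 38.1% after median centring and 5.34% on the scale of the hybridization controls. The Vegfa change was of moderate size, since 809 of 17810 clusters (4.54%) rose as far or further. The median of the 3 changes was 0.12, against -0.0026 over all clusters. It is the measured change of Egln3, which was within the range of the bacterial controls in both groups. The Vegfa call depended on how arrays were scaled. The hybridization controls, spiked into every sample, averaged 10.3 to 10.6 on the combination arrays against 10.0 to 10.2 on dexa+IL4 and 10.0 to 10.3 on cmB16F1. Scaling to them shifted the median change of all clusters to -0.26, and the Vegfa change became 0.11 (limma adjusted p = 0.440, the highest over 18 alternatives, from 7.59e-04 upward). This scaling moves all genes of an array by the same amount, so it left the distance of Vegfa from the median of all clusters, 0.37, as it was by construction. The part of the controls in the result was not tested.

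**Figure D2:**
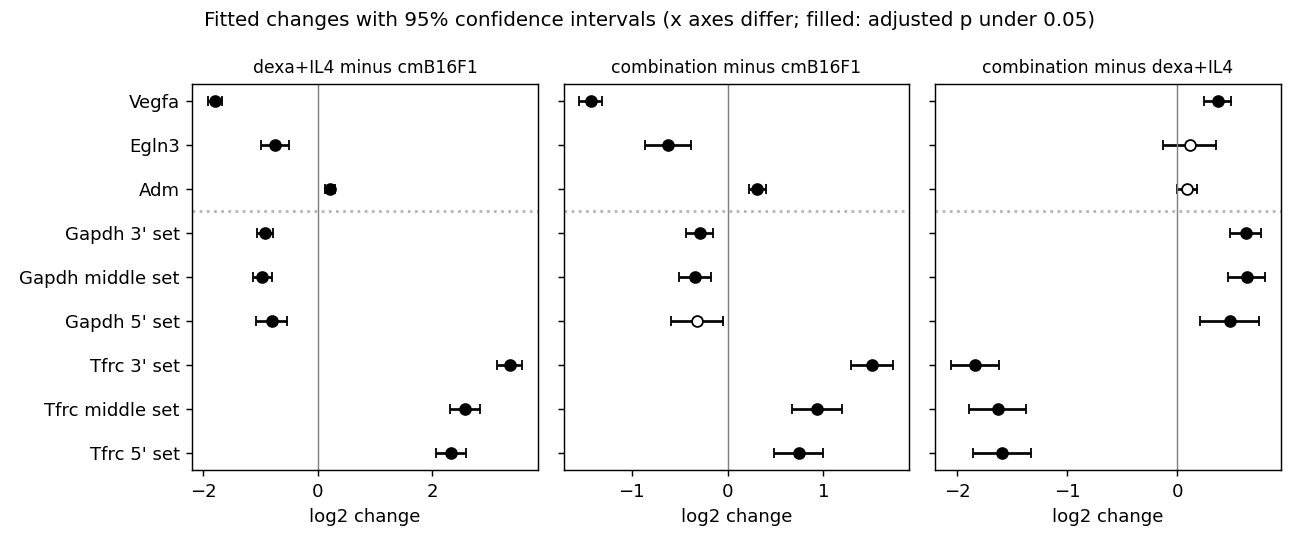
Fitted log2 change (horizontal axis, scale differing between panels) with 95% confidence interval in the 3 comparisons, for Vegfa, Egln3 and Adm and, below the dotted line, for the array maker's Gapdh and transferrin receptor (Tfrc) sets. Filled points had a limma adjusted p under 0.05; Vegfa is filled in every panel, at -1.79, -1.43 and 0.37, and Egln3 and Adm are open in the panel of the combination against dexa+IL4. The intervals are of the measured values and take no account of the background.

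The 3 comparisons share arrays, and their values stand side by side for that reason without a test between them. For Vegfa, adding dexamethasone and IL-4 to melanoma medium went with a change of -1.43, and adding melanoma medium to dexamethasone and IL-4 with one of 0.37. As measured, the combination therefore lay closer to dexa+IL4 than to cmB16F1 in Vegfa. Vegfa exceeded the highest bacterial control on 2 of 3 dexa+IL4 arrays, and barely, so the 0.37 may be too small. For Egln3 the measured changes were -0.63 and 0.12. Egln3 was within the range of the bacterial controls in both the combination and dexa+IL4, whose arrays overlapped, so these groups are given no order. The 0.12 was not past the threshold and turned to -0.14 on the scale of the hybridization controls. Adm had its highest mean in the combination, 0.31 above cmB16F1 and 0.09 above dexa+IL4, the latter not past the threshold and reversed, at -0.16, on the scale of the hybridization controls.

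**Figure D3:**
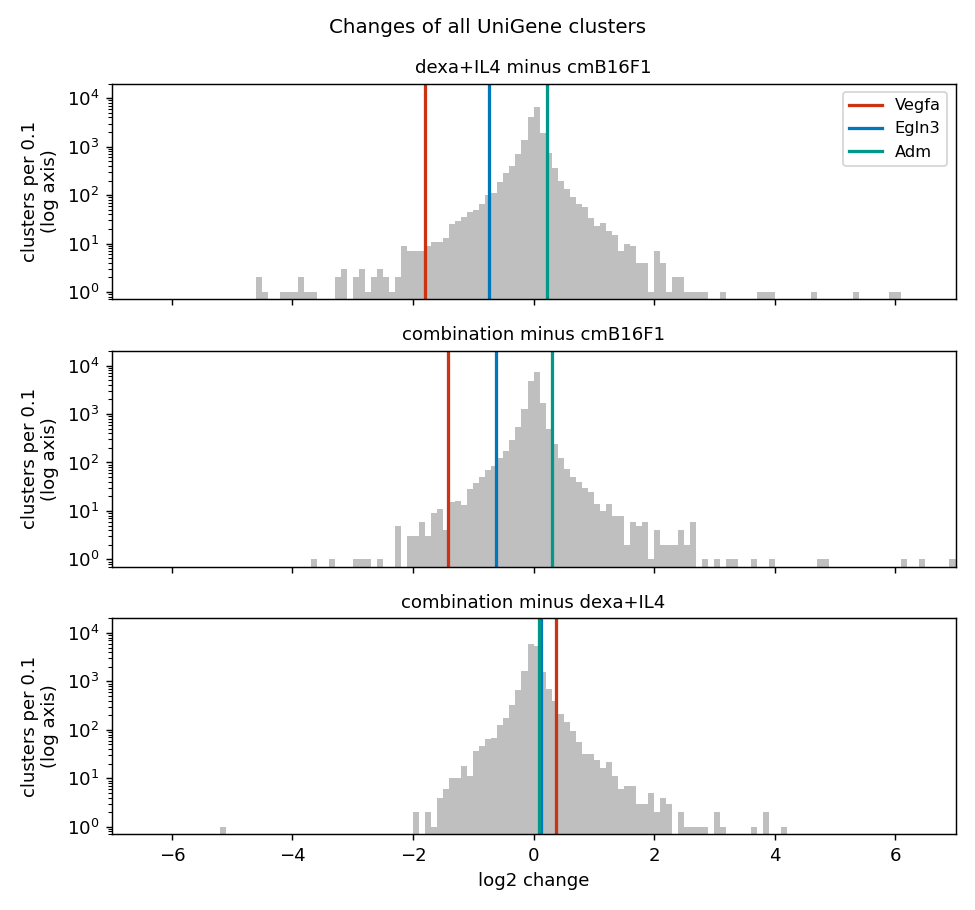
Number of UniGene clusters (vertical axis, logarithmic) by log2 change (horizontal axis, bins of 0.1) in each comparison, with lines at the measured changes of Vegfa, Egln3 and Adm. Vegfa lies in the left tail against cmB16F1, at -1.79 for dexa+IL4 and -1.43 for the combination, and Adm lies on the opposite side of 0, at 0.22 and 0.31.

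Against cmB16F1 the called changes of Vegfa and Adm had opposite signs. Differences between pairs of them were taken within each array, so that the array's overall brightness cancels, and compared between groups with exact two-sided permutation tests. The Vegfa minus Egln3 difference was 1.44 ± 0.21 (SD, n = 3) in cmB16F1, 0.64 ± 0.07 in the combination and 0.39 ± 0.05 in dexa+IL4. The Vegfa minus Adm difference was 2.11 ± 0.08, 0.37 ± 0.11 and 0.10 ± 0.04 in the same order. Egln3 exceeded the controls on 0 of 6 combination and dexa+IL4 arrays, so its differences from Vegfa there are lower bounds and have no order against the 1.44 of cmB16F1. Adm exceeded them on 0 of 3 cmB16F1 arrays, so the 2.11 there is a lower bound too. It lay above the 0.37 of the combination. In dexa+IL4, Adm exceeded them on 1 of 3 arrays and Vegfa on 2 of 3, so the 0.10 there is given no order. The Egln3 minus Adm difference was 0.67 ± 0.28 in cmB16F1 against -0.27 ± 0.10 in the combination and -0.29 ± 0.09 in dexa+IL4. By the same counts the 0.67 is a lower bound, as Adm was at background there. The -0.27 is an upper bound, as Egln3 was. In dexa+IL4, Egln3 exceeded the controls on 0 of 3 arrays and Adm on 1 of 3, so the -0.29 is given no order. Measured values of this difference overlapped between the combination and dexa+IL4 (exact permutation p = 0.5). The remaining 8 of 9 comparisons of measured differences gave an exact permutation p of 0.1, the smallest for 3 against 3 unpaired arrays. After Benjamini-Hochberg adjustment over the 9 permutation tests it was 0.1125, so none could pass 0.05. These tests ignored replicate number, also for the combination and cmB16F1, whose arrays deviated together by number.

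Likeness of pattern was measured as the Euclidean distance between the 9 log2 values of a pair of features, each centred on its own mean. For Vegfa the nearest of 10786 other features that were on average above the bacterial controls was cluster Mm.4067, at a distance of 0.184. It averaged 7.63 ± 0.02 (SD, n = 3) under dexa+IL4, 8.03 ± 0.11 under the combination and 9.53 ± 0.09 under cmB16F1. That these means run parallel to Vegfa follows from its choice as the nearest. Cluster Mm.15406 was nearest to Egln3, at 0.234, with means of 7.84 ± 0.04, 7.94 ± 0.15 and 8.65 ± 0.15 in that order. The feature nearest to Adm was at 0.116. Of the 17828 other features of any brightness, Egln3 ranked 219 by distance from Vegfa and Adm ranked 16600. From Adm, Egln3 ranked 17212 and Vegfa 17718. From Egln3, Vegfa ranked 16242 and Adm 16388, so Egln3 and Vegfa ranked near each other only when ranked from Vegfa. The distance depends on the size of changes as well as on their shape. A gene that changed less than Vegfa, such as Egln3 or Adm, thus has more near neighbours.

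A list of 38 further genes of the pathway had been drawn up, but without gene names only Gapdh, a glycolytic enzyme, and Tfrc, the transferrin receptor that takes up iron, could be measured, through the array maker's named sets. Both are known targets of hypoxia-inducible factors. The Gapdh sets kept the order of Vegfa, with the 3' set at 13.14, 12.85 and 12.23 in cmB16F1, the combination and dexa+IL4. All 3 Gapdh sets were called lower in dexa+IL4 than in cmB16F1 and higher in the combination than in dexa+IL4, and 2 of 3 were called lower in the combination than in cmB16F1. The 5' set, the exception, missed the threshold in limma (adjusted p = 0.125) and passed with the replicate number as a block (0.00869), on the scale of the hybridization controls (5.91e-04) and without combination replicate 1 (0.0361). For Gapdh the combination lay closer to cmB16F1, with changes of -0.29 and 0.62 at the 3' set. For Vegfa it lay closer to dexa+IL4 as measured, with Vegfa in dexa+IL4 barely above background. Beta-actin (Actb), a cytoskeletal gene that was not on the list, is given beside Gapdh. In the combination against cmB16F1 its 3', middle and 5' sets were at -0.21, -0.34 and -0.40, beside -0.29, -0.34 and -0.32 for Gapdh, and in dexa+IL4 against cmB16F1 by -0.27, -0.34 and -0.30. Of these the 3' set alone was called (limma adjusted p = 0.0237 and 0.00433). Its call in the combination was lost with array weights, without cmB16F1 replicate 1 and without combination replicate 2 (changes of -0.20, -0.18 and -0.19), and its call in dexa+IL4 on the scale of the hybridization controls (-0.22). The middle set gained a call in the combination against cmB16F1 with the replicate number as a block (limma adjusted p = 0.0299). On the scale of the hybridization controls the middle and 5' sets gained one there (limma adjusted p = 8.89e-05 and 1.63e-05). In dexa+IL4 against cmB16F1 the middle set gained one under 1 alternative (limma adjusted p = 0.0211). In the combination against dexa+IL4 no Actb set was called, with changes of 0.06, -0.01 and -0.10, and on the scale of the hybridization controls the 3' set turned to -0.20 and the 5' set was called, at -0.36. What Actb and Gapdh share was not tested.

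Tfrc ran the other way: its 3 sets were called higher in dexa+IL4 than in cmB16F1, by 3.35 at the 3' set, and lay between the arms in the combination. By distance from Vegfa, the Gapdh 3', middle and 5' sets ranked 280, 252 and 380 of 17828 features. The Actb sets ranked 1155, 921 and 1164 in the same order, and the Tfrc sets 17816, 17803 and 17795. The direction of the Gapdh and Tfrc calls was the same under each scaling that was tried, but the Gapdh 5' set was no longer called in the combination against dexa+IL4 on the scale of the hybridization controls (limma adjusted p = 0.115). Leaving out replicate 1 or replicate 3 of dexa+IL4 also ended that call (changes of 0.51 and 0.41), as did leaving out the first or the second replicate of the combination (0.36 and 0.50). The call of the Gapdh 3' set in the combination against cmB16F1 was lost without cmB16F1 replicate 2 (change -0.26).

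Across alternatives the sizes for Vegfa were stable against cmB16F1. Over 18 alternatives its change ran from -1.82 to -1.75 for dexa+IL4 and from -1.64 to -1.37 for the combination, with limma adjusted p of at most 1.25e-06 and 1.54e-05. For Egln3 the 17 alternatives gave -0.89 to -0.65 and -0.84 to -0.53, with limma adjusted p of at most 0.00463 and 0.0155. The outer values for Egln3 in dexa+IL4 against cmB16F1 came from leaving out single arrays, which is also where its replicates were most spread. Against dexa+IL4, the change of Vegfa in the combination ran from 0.11 to 0.42.

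**Figure D4:**
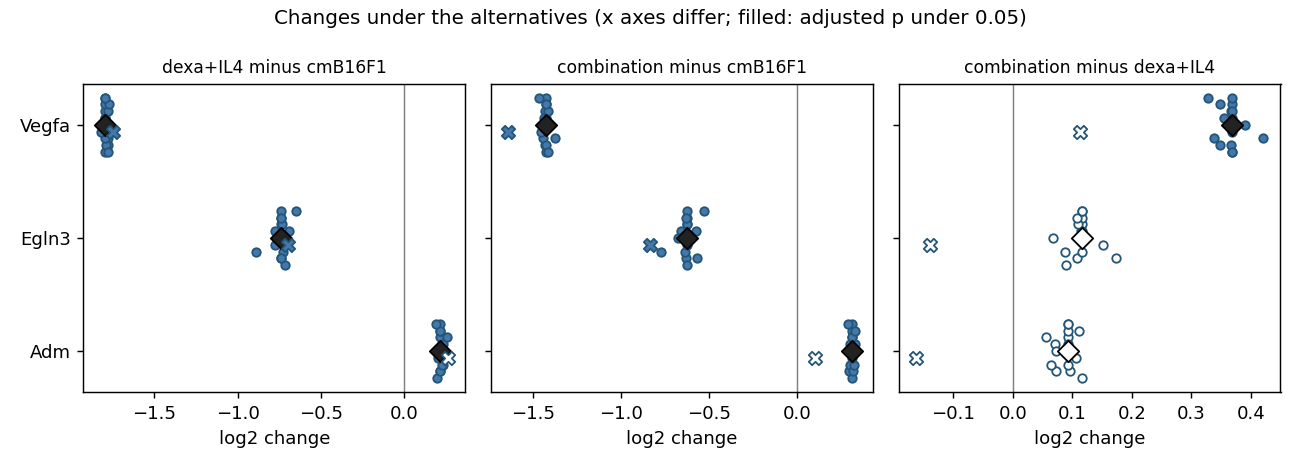
Log2 change (horizontal axis, scale differing between panels) of Vegfa, Egln3 and Adm as reported (diamonds), under scaling to the hybridization controls (crosses) and under the other alternatives (circles, spread vertically to be seen). Filled symbols had a limma adjusted p under 0.05; the crosses for Egln3 and Adm in the combination against dexa+IL4 lie below 0, at -0.14 and -0.16, and are open.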

How the data were processed

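Total RNA of each culture was hybridised to its own Affymetrix array, per the labels' protocols. The authors deposited 1 log2 value per probe set, already on a common scale: array medians lay between 7.19 and 7.25, and log2 was inferred from the range of the numbers. For background correction, normalization method, chip definition and UniGene build the sources used here give nothing. The precision is limited by 3 arrays a group.

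Features were 17810 clusters and 19 mouse control sets. For 57 clusters with a plus and a minus set, the brighter was used. limma 3.58.1 in R 4.3.3 (lmFit, eBayes with a mean-variance trend) was fitted to all 9 arrays with group as the only term (6 residual and 3.85 prior degrees of freedom), and p-values were adjusted over all 17829 features with the Benjamini-Hochberg method at 0.05. The fit was also run on simulated arrays with independent errors. These did not include deviations shared by replicate number or differences in scaling between groups. Exact permutation tests used scipy 1.17.1. No column was left out.

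The members, the gene lists and the rule for named genes were chosen with earlier results of these data known. The rule named every member found, the control sets of Gapdh and Tfrc, other pathway and cell-type marker genes if a table named them (none did), and each member's nearest feature, with at most 2 cluster numbers printed in each direction. Whether equal replicate numbers pair arrays was checked by correlating each array's deviations from its group mean. The correlations were 0.617, 0.565 and 0.662 for the combination and cmB16F1, all above 0.1, so these groups count as paired. The other group pairs had -0.0672 and -0.0234 for replicate 2 and do not. The Gapdh 3' set minus its 5' set also differed by replicate number. In replicates 1, 2 and 3 it was 0.24, 0.59 and 0.52 in the combination and 0.19, 0.57 and 0.50 in cmB16F1. In dexa+IL4 it was 0.26, 0.26 and 0.40. For Actb this difference was 0.95, 1.39 and 1.10 in the combination and 0.73, 1.13 and 1.02 in cmB16F1. Whether this bears on the pairing, on Egln3 or on the 5' set calls was not tested.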

Additional observations from a re-analysis of the deposited data

How the results depend on the processing

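The 9 changes of Vegfa, Egln3 and Adm were recomputed under 18 alternatives, of which the filter on dim probe sets gave no value for Egln3 and Adm, whose means over all arrays did not exceed 7.00. Bnip3 had no value to recompute. Scaling to the hybridization controls was the only alternative that altered a call or a direction of these genes. With it, the change in the combination against dexa+IL4 was 0.11 for Vegfa, no longer past the threshold, and turned to -0.14 for Egln3 and -0.16 for Adm, which missed it before and after. Adm also lost its calls in the combination against cmB16F1, at 0.10, and in dexa+IL4 against cmB16F1, at 0.26. The cause was not tested, though this scaling shifted the median change of all clusters to -0.26, -0.20 and 0.06 in the comparisons of the combination with dexa+IL4, of the combination with cmB16F1 and of the single arms.

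The number of clusters called in the combination against dexa+IL4 was 3184 as reported, 7104 with that scaling, and 2044 to 3356 when single arrays were left out (2044 without dexa+IL4 replicate 1 and 2096 without its replicate 3). Between the single arms it was 4454, and 1893 with that scaling. With the replicate number as a block, no call of these 3 genes changed, and the limma adjusted p in the combination against cmB16F1 was 4.90e-07 for Vegfa, 4.26e-04 for Egln3 and 2.53e-04 for Adm. The beta-actin sets were added after seeing the data. In the combination against dexa+IL4, where none was called, their sign turned at the 3' set with hybridization-control scaling (-0.20) and when single arrays were left out at the 5' set (-0.22 to 0.042) and the middle set (-0.11 to 0.087).

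Signal over background limits Egln3 and Adm: a level within the range of the bacterial controls is not told apart from background, so their changes are bounds or measured differences only.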
